A study of Mus musculus with 6 samples.

Results

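The genes described here are 36 genes of lipid uptake and cholesterol handling, chosen by name among the 30406 genes listed in all 3 count matrices of the study. They were grouped by role: 8 genes of uptake and intracellular lipid carriage (Cd36, Msr1, Olr1, Vldlr, Lpl, Fabp4, Fabp5, Pla2g7), 5 of storage (Plin2, Plin3, Soat1, Dgat1, Acsl1) and 3 of release from lysosomes (Lipa, Npc1, Npc2). A further 8 concern cholesterol efflux and its regulation (Abca1, Abcg1, Nr1h3, Pparg, Apoc1, Apoc2, Apoc4, Ch25h), 8 sterol synthesis and its control (Hmgcs1, Idi1, Fdps, Fdft1, Sqle, Cyp51, Insig1, Srebf2) and 4 fatty acid synthesis (Srebf1, Fasn, Scd1, Scd2). All 36 were listed in each matrix, and their levels are given by cell class, by hashed sample and by surface protein.

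The cells were CD11b+ cells (CD11b is an integrin chain on myeloid and some lymphoid cells) isolated from the brain of C57BL/6 mice (age 12 weeks). They were profiled by CITE-seq, which reads the mRNA and the antibody-tagged surface proteins of single cells together. Each of 3 pools combined 6 hashed samples: a female and a male control, a female and a male carrying a glioma for 14 days after implantation, and a female and a male carrying one for 21 days. The animals were perfused, and tumor-bearing hemispheres, or whole brains in the controls, were dissociated enzymatically. The implanted cells and the number of animals behind a hashed sample are not given in the sources used here. Within a pool the samples were told apart by 6 hashtag antibodies, and no source used here says which hashtag marks which sex or time, so no comparison by sex, tumor or day was made. The main tests are between cell classes or protein gates within the same hashed samples. Border macrophage-like cells were compared by sums over each pool.

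Macrophages take up modified lipoproteins through scavenger receptors such as those encoded by Msr1 and Cd36, free the cholesterol in lysosomes and either esterify it for storage in lipid droplets or export it. Export is controlled by the liver X receptors, nuclear receptors for oxidized sterols that switch on the transporters Abca1 and Abcg1, while low sterol releases SREBP2, the product of Srebf2, which switches on the enzymes of sterol synthesis. Microglia, the resident macrophages of the brain, handle lipid from myelin and dying cells, and lipid-laden macrophages and microglia are known from brain lesions and tumors.

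Promoters are shown for the genes that a liver X receptor or SREBP is known to switch on and whose sequence held a matching pattern, because both factors are encoded or controlled by genes described here. RefSeq promoters of build GRCm38.p6 were found for 23 of the 36 genes. In the first set the capitals mark 2 copies of GGTNA on the strand opposite to the gene, with 5 bases between them, which is the core of the repeat bound by liver X receptors. In the second set they mark TCACCCCAC on either strand, the type of element bound by SREBPs. Each window is written 5′ to 3′ on the gene's strand.
Abca1: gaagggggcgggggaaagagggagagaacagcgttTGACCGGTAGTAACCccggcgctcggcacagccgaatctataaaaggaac
Srebf1: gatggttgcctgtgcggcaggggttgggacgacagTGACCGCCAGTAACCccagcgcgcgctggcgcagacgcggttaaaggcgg
Fasn: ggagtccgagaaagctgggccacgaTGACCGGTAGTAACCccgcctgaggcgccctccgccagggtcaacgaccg
Hmgcs1: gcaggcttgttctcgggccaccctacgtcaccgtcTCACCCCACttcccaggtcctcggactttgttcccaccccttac
Acsl1: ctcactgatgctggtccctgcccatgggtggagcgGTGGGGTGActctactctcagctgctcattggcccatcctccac
The windows lie at chr4:53159913-53159997 (minus strand) for Abca1, chr11:60210604-60210688 (minus strand) for Srebf1, chr11:120824723-120824797 (minus strand) for Fasn, chr13:119690179-119690257 (plus strand) for Hmgcs1 and chr8:46490855-46490933 (plus strand) for Acsl1, all just upstream of a RefSeq transcription start. Counted from the start, the capitals span bases -67 to -53 in Abca1, -182 to -168 in Srebf1, -225 to -211 in Fasn, -137 to -129 in Hmgcs1 and -76 to -68 in Acsl1. The Abca1 and Fasn repeats had the same 15 bases, and the Srebf1 repeat differed from that of Abca1 at 2 of them, G7C and T8C, counted from the 5′ end of the capitals as printed.

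In all, 9 patterns were searched on both strands of the 250 bases before each start. The GGTNA repeat was found in 0.621% of 32851 promoters and in 3 of the 23 genes. TCACNCCAC was found in 1.05% of promoters and in 2 of the 23 genes, Hmgcs1 and Acsl1, and both hold its narrower form TCACCCCAC, found in 0.496%. The E-box CACGTG was found in 6.02% of promoters and in Abca1 and Insig1, and the ETS core GGAAGT in 19.7% and in Soat1, Cd36, Hmgcs1 and Lipa. In Hmgcs1 the ETS core overlapped the end of TCACCCCAC. None of the 23 held TCACCCCAC preceded by an A (0.0731% of promoters), AGGTCA repeated with 4 bases between (0.0152%, which lies within the GGTNA repeat), AGGTCA repeated with 1 base between (0.0335%) or GAGGAAGT, which extends the ETS core (2.44%). These matches describe letters only, and whether a factor binds them in these cells was not measured.

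The matrices held 13925, 11010 and 11820 cell barcodes in pools 1, 2 and 3, of which 13766, 10688 and 11760 passed the filters on genes, UMIs (unique molecular identifiers, 1 per captured mRNA) and mitochondrial share, with median depths of 4451, 8129 and 4689 UMIs. A single hashtag held at least 80% of the hashtag UMIs in 79.2%, 87.5% and 16.1% of these cells, so pool 3 gave 1896 cells against 10908 and 9353. Pairs of pools shared 32 to 53 barcodes. Clusters built without the 36 genes were named from marker lists: 9744 cells were microglia-like, 4896 in 3 clusters macrophage-like and 1088 in 1 cluster monocyte-like. Ms4a7, a gene of infiltrating and border macrophages, had a median of 694 CPM (UMIs of the gene scaled to a fixed total per sample and class) in macrophage-like samples. It had 10.6 in microglia-like ones and 785 in the 1 border macrophage-like sample. Tmem119, a microglial gene, had 147 in macrophage-like against 1174 in microglia-like samples. These medians are over 11 macrophage-like and 18 microglia-like samples, the latter of all hashtags. Both genes are in the lists that named the clusters, so these levels describe the labels and cannot check them. Clusters of dendritic cell-like, NK cell-like, patrolling monocyte-like, neutrophil-like and border macrophage-like cells were smaller. A cluster of 2742 cells led by Saa3, Ly6i and Nos2 lay between monocytes and macrophages and was left unnamed.

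Macrophage-like and microglia-like cells differed in most of the 36 genes. Of the 29 genes with enough UMIs for the test, 20 were higher and 4 lower in macrophage-like cells. In the same fit 72.3% of all 9697 genes tested were called, 34.1% higher and 38.2% lower. The median log2 fold change was 0.77 over the 29 genes and -0.05 over all genes. Scaling to library size alone shifted the median of all genes to -0.27 and the calls from 3311 higher and 3703 lower to 2346 and 4989, and moved the median of the 29 genes to 0.54. Levels did not overlap between the classes for 9 of the 29 genes, against 21.3% of all genes tested. The test (edgeR's quasi-likelihood test with Benjamini-Hochberg adjustment) paired both classes within 11 hashed samples, all under Hashtag3 to Hashtag6, because too few macrophage-like cells carried Hashtag1 or Hashtag2. Macrophage-like cells were also deeper, with a median over samples of 12091 UMIs per cell against 5980, and had a lower mitochondrial share, 1.12% against 2.63%, and the part of either in these differences was not tested. Summed microglial markers stood at 1474 to 3332 CPM in the macrophage-like cells of these 11 samples and at 10130 to 14180 in their microglia-like cells.

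Among the uptake genes the classes differed in both directions. Cd36, a scavenger receptor and fatty acid translocase, had 1.03, 3.46 and 8.96 CPM (lowest, median and highest hashed sample) in macrophage-like cells and 12.7, 30.9 and 144 in microglia-like cells. All 11 samples had less Cd36 in the macrophage-like class, with no overlap (log2 fold change -3.17 ± 0.22 (SE), adjusted p = 1.3e-10). Msr1, the class A scavenger receptor, ran the other way, from 51.8 through 141 to 197 CPM in macrophage-like cells and from 0 through 7.12 to 14.1 in microglia-like cells (4.22 ± 0.18, adjusted p = 8.1e-14). Again no sample of one class reached the other. Lpl, the lipase that frees fatty acids from lipoprotein triglyceride, was lower in the macrophage-like class in all 11 samples, with 0.773, 8.03 and 24.9 CPM against 13.4, 39.2 and 205 (-2.22 ± 0.29, adjusted p = 1.3e-06), although the ranges overlapped.

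The 2 largest uptake differences were in Fabp5 and Pla2g7. Fabp5, a cytosolic fatty acid-binding protein, had 791, 1822 and 3952 CPM in macrophage-like cells against 23.5, 54.9 and 128 in microglia-like cells, a log2 fold change of 5.05 ± 0.22 (adjusted p = 1.5e-13). Pla2g7, a secreted phospholipase that cleaves oxidized phospholipids, had 392, 558 and 749 CPM against 8.17, 18.1 and 26.3 (5.06 ± 0.17, adjusted p = 2.5e-15). Both were higher in 11 of 11 samples with no overlap. Pla2g7 is also among the leading genes of macrophage cluster 0, which was built without it.

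**Figure D1:**
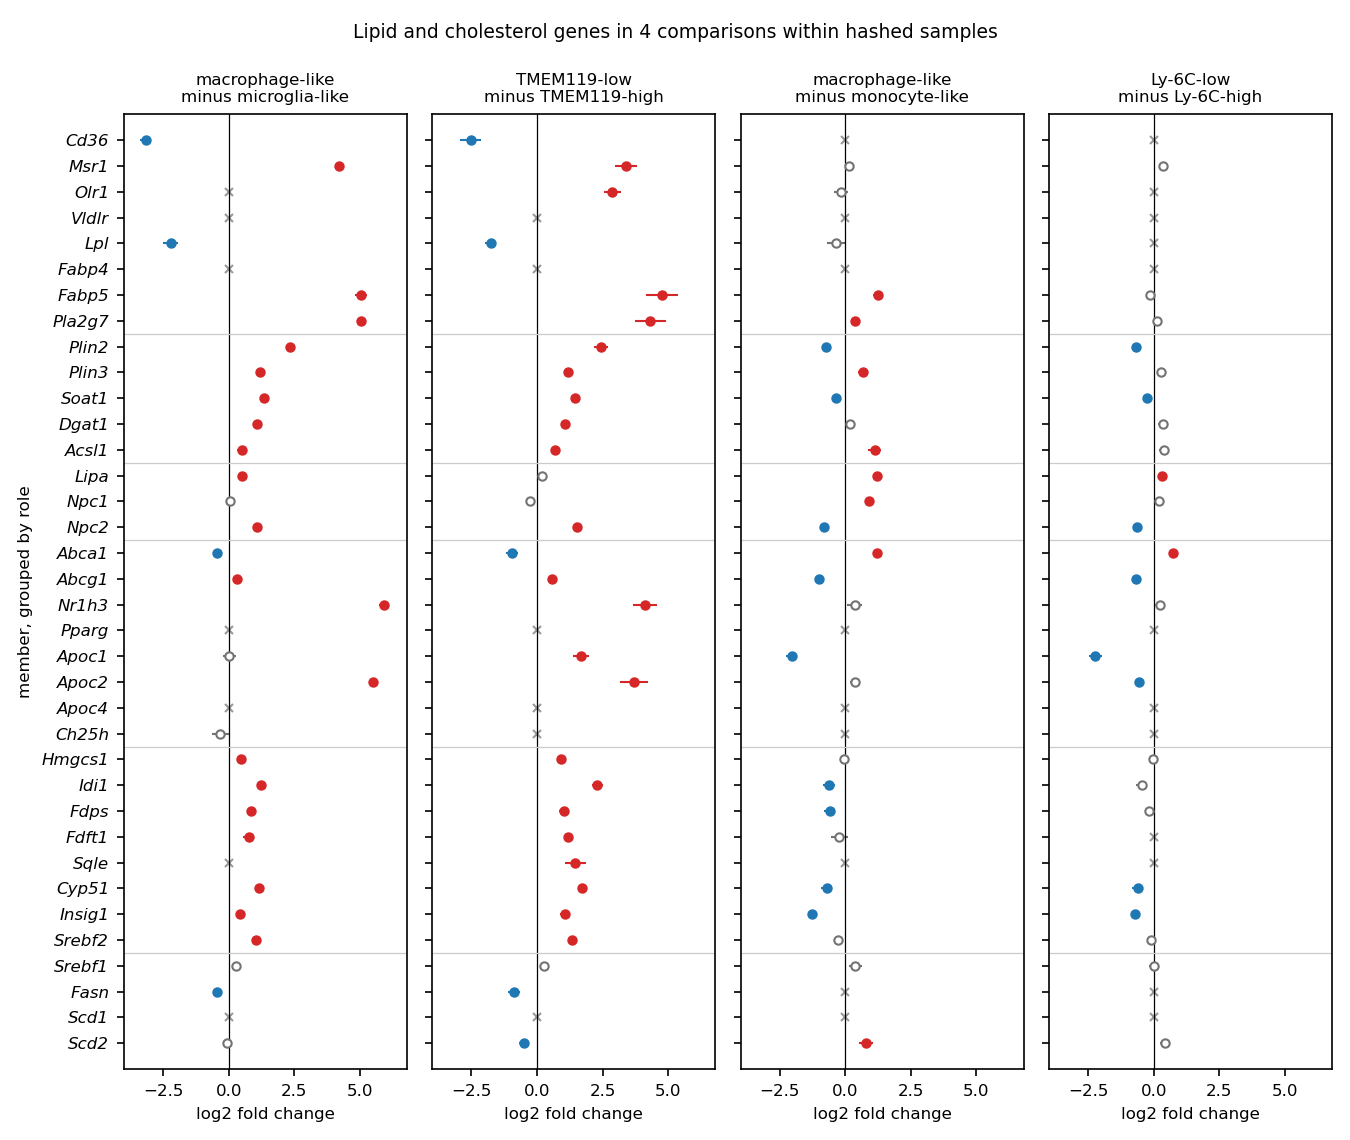
Log2 fold change of each of the 36 genes (rows, grouped by role) in 4 comparisons within hashed samples, with standard errors as bars. Filled red points passed the test as higher and filled blue points as lower, open grey points were tested and did not pass, and grey crosses at 0 mark genes not tested. Fabp5, Pla2g7 and Nr1h3 lie above 4 both for macrophage-like against microglia-like cells and for TMEM119-low against TMEM119-high cells, whereas Cd36 and Lpl lie below 0 in both.

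All 5 storage genes rose in macrophage-like cells. Plin2, which coats lipid droplets, had 240, 296 and 426 CPM against 37.1, 75.6 and 101 in microglia-like cells (2.34 ± 0.14, adjusted p = 1e-11), and Soat1, which esterifies cholesterol for storage, 110, 164 and 181 against 56.6, 67.2 and 88.3 (1.35 ± 0.07, adjusted p = 1.6e-12). Neither gene overlapped between the classes. Plin3, a second droplet coat protein, rose by 1.20 ± 0.08, also without overlap, and Dgat1, which makes triglyceride, by 1.08 ± 0.12. Acsl1, which activates fatty acids to their CoA esters, was higher by 0.50 ± 0.16 in 8 of 11 samples (adjusted p = 0.0087), and its difference fell to 0.21 (adjusted p = 0.29) without pool 1.

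The lysosomal genes were more alike between the classes. Npc2, the soluble carrier that takes cholesterol from the lysosomal lumen to NPC1, had 1720, 2061 and 3339 CPM in macrophage-like cells and 1022, 1230 and 1367 in microglia-like cells, higher in 11 of 11 samples without overlap (1.09 ± 0.09, adjusted p = 3.3e-09). Lipa, lysosomal acid lipase, had 56.2, 95.8 and 123 CPM against 65.2, 72.6 and 91.5 (0.50 ± 0.08, adjusted p = 2.7e-05), with overlapping ranges. Npc1, the membrane partner of NPC2, did not pass (0.06 ± 0.12, adjusted p = 0.65), though it did without pool 1 (0.30, adjusted p = 0.024).

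The 2 cholesterol exporters moved little, and in opposite directions, while Nr1h3, the gene of 1 of the receptors that control them, differed more than any other of the tested genes. Nr1h3, which encodes liver X receptor alpha, had 58.2, 75.4 and 108 CPM in macrophage-like cells and 0, 1.21 and 2.69 in microglia-like cells, with no overlap in 11 samples (5.92 ± 0.18, adjusted p = 4.8e-16). The 9744 microglia-like cells of all hashtags held 86 UMIs of Nr1h3, so the size of this fold rests on few counts. Abca1, which loads cholesterol onto apolipoproteins, had 57.2, 79.3 and 179 CPM against 147 (80.4 to 224) and was lower in 9 of 11 samples (-0.45 ± 0.13, adjusted p = 0.0043). Without pool 1 or pool 2 Abca1 stood at -0.38 (adjusted p = 0.078) and -0.40 (adjusted p = 0.058). Abcg1, which exports cholesterol to lipoprotein particles, was higher by 0.33 ± 0.11 (adjusted p = 0.011). It missed the threshold without pool 2 (0.31, adjusted p = 0.066) or pool 3 (0.23, adjusted p = 0.051), and with scaling to library size alone (0.10, adjusted p = 0.41).

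Apoc2, an apolipoprotein that activates lipoprotein lipase, needs a caution. It had 31 UMIs in all of pool 1 and 24698 and 14656 in pools 2 and 3, whereas its neighbors Apoc1 (1173, 1136 and 1082) and Apoc4 (67, 109 and 102) were counted alike in the 3 pools. The read-through gene Gm44805, which overlaps Apoc2 and Apoc4, is listed in the gene set of pool 1 (with 0 UMIs) and in neither of the others. The part of the gene set in the level of Apoc2 in pool 1 was not tested. Without pool 1 Apoc2 was higher in macrophage-like cells by 5.50 on the log2 scale (adjusted p = 1.5e-13), and with it by 5.50 ± 0.13 (adjusted p = 7.8e-17), from 0 through 317 to 529 CPM against 0 through 9.32 to 13.4. Apoc1, another lipoprotein component, and Ch25h, which makes an oxysterol, did not pass, at 0.03 (adjusted p = 0.93) and -0.32 (adjusted p = 0.41). In RefSeq, Nr1h3 overlaps Acp2, Fdft1 overlaps Ctsb and Srebf1 overlaps Rai1, and Npc1 overlaps Rmc1. No source here states whether counting used strand, so reads of such overlapping genes may be split between them.

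All 7 sterol genes tested rose in macrophage-like cells, by log2 values of 0.42 to 1.25. Idi1, an isomerase of the isoprenoid steps, had 4.48, 10.2 and 13.3 CPM against 0, 3.91 and 7.72 in microglia-like cells (1.25 ± 0.15, adjusted p = 4.4e-07), and Cyp51, the lanosterol demethylase, 9.42, 14.9 and 18.6 against 3.35, 6.60 and 13.1 (1.17 ± 0.13, adjusted p = 1.4e-07). Srebf2 rose by 1.03 ± 0.09. Fdps, Idi1, Cyp51 and Srebf2 were higher in 11 of 11 samples, yet their ranges overlapped between the classes. Some of the smaller rises depended on 1 pool or on the scaling: Fdft1, squalene synthase, fell from 0.77 to 0.43 (adjusted p = 0.17) without pool 1, and Insig1, which holds SREBP in the endoplasmic reticulum, from 0.42 to 0.16 (adjusted p = 0.36) without pool 1 and to 0.20 (adjusted p = 0.22) with library-size scaling.

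Fatty acid synthesis did not follow. Fasn, fatty acid synthase, had 2.06, 5.23 and 10.9 CPM in macrophage-like cells against 3.35, 9.27 and 15.4 and was lower in 9 of 11 samples (-0.46 ± 0.15, adjusted p = 0.0082). It was not called without pool 2 (-0.50, adjusted p = 0.092), without the replicate block (-0.39, adjusted p = 0.16) or with counts summed per pool (-0.26, adjusted p = 0.13). Srebf1, which encodes the SREBP that switches on fatty acid synthesis, missed the threshold at 0.27 ± 0.12 (adjusted p = 0.051) and passed it without pool 1 (0.42, adjusted p = 0.012). Scd2, a stearoyl-CoA desaturase, stood at -0.06 ± 0.13 (adjusted p = 0.70). The other 7 genes had too few UMIs for this test: Olr1 (a receptor for oxidized LDL), Vldlr, Fabp4, Pparg (a nuclear receptor for fatty acids), Apoc4, Sqle (squalene epoxidase) and Scd1.

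**Figure D2:**
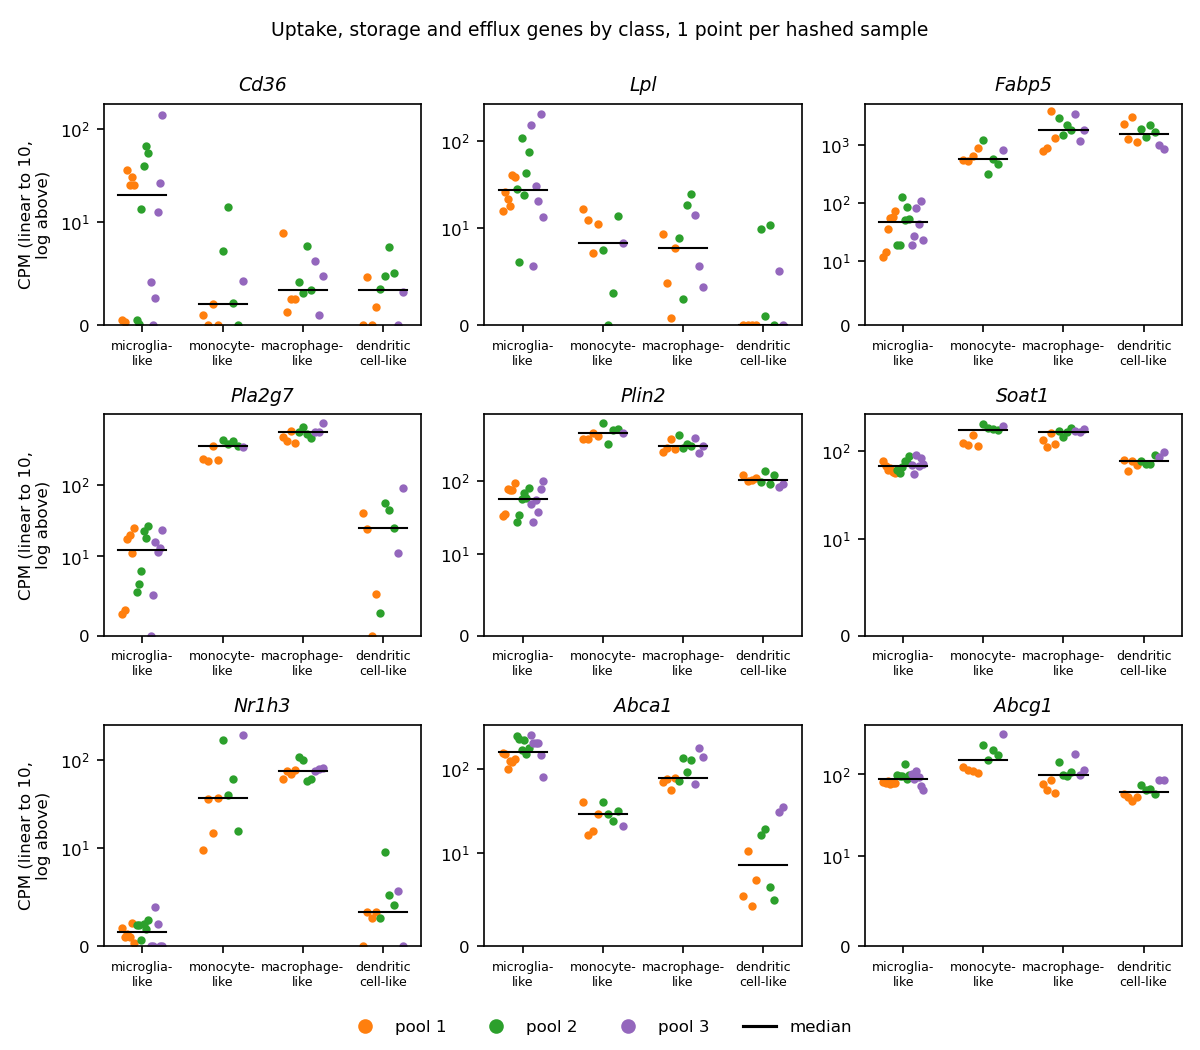
Levels of 9 uptake, storage and efflux genes (CPM, on an axis that is linear to 10 and logarithmic above) by class, 1 point per hashed sample with at least 20 cells of the class, colored by pool, with the median as a bar. Fabp5, Pla2g7 and Nr1h3 of macrophage-like samples lie above every microglia-like sample, and Cd36 does not exceed 8.96 CPM in any macrophage-like sample. Microglia-like points include Hashtag1 and Hashtag2.

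Against monocyte-like cells the genes differed in both directions, and the share called was near that of all genes tested. Of 27 genes tested in 9 hashed samples, 8 were higher and 9 lower in macrophage-like cells, where 63.1% of all 7813 genes were called, 34.3% higher and 28.8% lower. The median log2 fold change was -0.05 over the 27 genes and 0.08 over all genes. With library-size scaling the median of all genes was 0.37, and 4006 were called higher and 1475 lower in place of 2679 and 2252. Levels did not overlap for 3 genes, Lipa, Abca1 and Insig1, against 21% of all genes tested. The macrophage-like arm is the same as in the comparison with microglia-like cells, so these 2 comparisons share it. Summed microglial markers were at medians of 1960 CPM over 11 macrophage-like samples and 277 CPM over 9 monocyte-like samples. Macrophage-like cells were also deeper in each sample, for example with medians of 15175 against 9375 UMIs per cell under Hashtag6 of pool 2. The part of either in the differences was not tested.

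The lysosomal and efflux genes differed in both directions. Lipa had 56.2, 95.8 and 123 CPM in macrophage-like and 18.4, 27.5 and 51.3 in monocyte-like cells (1.22 ± 0.13, adjusted p = 7.8e-08), higher in 9 of 9 samples without overlap. Npc1 was higher by 0.91 ± 0.15 (adjusted p = 3.4e-05), whereas Npc2 was lower in 9 of 9 samples, with 1775, 2125 and 3339 CPM against 2806, 3226 and 4050 (-0.80 ± 0.08, adjusted p = 2.9e-08). The exporters split again, in the opposite sense from the comparison with microglia-like cells. Abca1 had 57.2, 77.5 and 138 CPM against 16.6, 29.2 and 41.3 (1.22 ± 0.16, adjusted p = 1.4e-06), and Abcg1 58.5, 96.3 and 181 against 104, 151 and 312 (-1.01 ± 0.08, adjusted p = 1.9e-09). Apoc1 was lower in 9 of 9 samples, with 5.11, 10.9 and 27.3 CPM against 7.37, 42.7 and 69.7 (-2.05 ± 0.22, adjusted p = 1.2e-07).

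Storage and uptake were mixed. Fabp5 was higher in macrophage-like cells in 9 of 9 samples, with a median of 1838 CPM (791 to 3952) against 580 (313 to 1251), a log2 fold change of 1.26 ± 0.19 (adjusted p = 1.2e-05). Plin2 was lower in 9 of 9, at 300 CPM (249 to 426) against 444 (313 to 615), by -0.75 ± 0.08 (adjusted p = 2e-07). Soat1 was lower by -0.35 ± 0.08 and Plin3 higher by 0.66 ± 0.17. Plin3 did not pass without pool 2 (0.41, adjusted p = 0.13). Acsl1 (1.12 ± 0.24, adjusted p = 0.00048) and Pla2g7 (0.38 ± 0.09, adjusted p = 0.00077) were higher, but without pool 1 neither passed, at 0.46 (adjusted p = 0.22) and 0.24 (adjusted p = 0.13). Both turned negative when hashtags were assigned by the HTODemux-like rule (-0.51 and -0.14) and when the lipid genes took part in the clustering (-0.23 and -0.0015).

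All 7 sterol genes tested had negative log2 fold changes against monocyte-like cells, although Hmgcs1 (0.24), Fdft1 (0.06) and Srebf2 (0.0079) were positive with library-size scaling, and 4 of the 7 passed as lower. Insig1 had 20.4, 25.3 and 36.2 CPM against 44.1, 55.3 and 63.0, with no overlap (-1.28 ± 0.11, adjusted p = 7.9e-09). Cyp51 (-0.71 ± 0.21), Idi1 (-0.63 ± 0.24) and Fdps (-0.59 ± 0.21) also passed (adjusted p = 0.0061, 0.030 and 0.021), but without pool 1 none of the 3 did, at -0.64, -0.24 and -0.37 (adjusted p = 0.12, 0.59 and 0.30), nor with library-size scaling, at -0.42, -0.34 and -0.31. Hmgcs1, which makes HMG-CoA, Fdft1 and Srebf2 did not pass, at -0.05, -0.23 and -0.28. Of the fatty acid genes Scd2 was higher by 0.79 ± 0.27 (adjusted p = 0.017) and fell to 0.08 (adjusted p = 0.85) without pool 2, and Srebf1 did not pass (0.37).

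Msr1 (0.13), Olr1 (-0.15), Lpl (-0.35), Dgat1 (0.19), Nr1h3 (0.35) and Apoc2 (0.37) did not pass against monocyte-like cells. Lpl passed without pool 2 (-1.38, adjusted p = 0.0068) and had the opposite sign without pool 1 (0.69). Without pool 1 Nr1h3 stood at -0.32 and Apoc2 at 0.41 (adjusted p = 0.10). Cd36, Vldlr, Fabp4, Pparg, Apoc4, Ch25h, Sqle, Fasn and Scd1 were not tested.

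The unnamed cluster between the classes shifted several of these values. With it in place of the monocyte-like cells (10 samples), Abca1 stood at 0.48, Lipa at 0.61, Npc1 at 0.49, Npc2 at -0.43 and Apoc1 at -0.56, each still called, while Plin2 (-0.08, adjusted p = 0.27), Soat1 (-0.04, adjusted p = 0.51) and Abcg1 (-0.09, adjusted p = 0.25) no longer were. In the cluster itself Fabp5 ran through 369, 743 and 848 CPM, Plin2 through 241, 291 and 358 and Nr1h3 through 65.0, 93.9 and 151. The sterol genes stayed lower in macrophage-like cells: Idi1 was at -0.72, Insig1 at -0.62, Cyp51 at -0.53 and Fdps at -0.43, and Fdft1 (-0.55) and Srebf2 (-0.46) were then called too.

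Lists of further lipid genes were read beside the members, each gene tested in the same fits, in which 72.3% of all genes were called against microglia-like and 63.1% against monocyte-like cells. The shares called in these lists are counts beside that background and mark nothing particular to a list. Of 20 other genes of sterol synthesis and SREBP2 targets, 17 could be tested between macrophage-like and microglia-like cells, and 9 were higher and 3 lower. Mvd and Pmvk, enzymes of the mevalonate steps, rose by 1.33 and 1.18. Against monocyte-like cells, 2 of 14 genes tested were higher and 5 lower. Scap, the escort protein of SREBP, was 1 of the 2 that were higher (1.57), and it was lower than in microglia-like cells (-0.52).

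Among 6 further uptake receptors tested, 3 were higher and 1 lower than in microglia-like cells, and 4 of 6 were higher than in monocyte-like cells, where the other 2 did not pass. Trem2, a lipid receptor of microglia and macrophages, was lower than in microglia-like cells (-1.37) and higher than in monocyte-like cells (2.52). Of 12 further storage and lipolysis genes tested, 6 were higher and 6 lower than in microglia-like cells: Agpat4, an acyltransferase, rose by 3.17 and Hilpda, which inhibits droplet lipolysis, by 2.55, and Mgll, monoacylglycerol lipase, fell by 2.39. Of 10 further liver X receptor targets and efflux genes, 3 were higher and 4 lower than in microglia-like cells. Apoe, which encodes the main apolipoprotein of the brain, rose by 2.74 and Smpdl3a by 2.67, while Mylip, which encodes a ubiquitin ligase, fell by 1.5. Against monocyte-like cells 4 of these 10 were higher and 5 lower, with Apoe at 1.4 and Smpdl3a at -1.31.

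For fatty acid oxidation, 6 of 15 genes were higher and 5 lower than in microglia-like cells, and 5 were higher and 2 lower than in monocyte-like cells. Of 6 further fatty acid synthesis genes tested, 3 did not pass and 3 were lower than in microglia-like cells: Mlxipl, a glucose-responsive regulator, fell by 2.70, the desaturase Fads1 by 1.03 and Acly, which makes cytosolic acetyl-CoA, by 0.25.

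Surface protein gave a grouping of cells that did not use mRNA, although the hashed samples were those of the comparison between macrophage-like and microglia-like cells. TMEM119 is a microglial surface protein, and within each of 11 hashed samples the 25% of cells with the lowest TMEM119 tag level were compared with the 25% with the highest. The low gate was mixed: the unnamed cluster made up 14.0, 35.9 and 66.5% of it (lowest, median and highest sample), macrophage-like cells 12.9, 38.2 and 54.8% and dendritic cell-like cells 5.55, 9.52 and 24.4%. Microglia-like cells made up 24.6, 84.6 and 94.2% of the high gate. Of 30 genes tested, 22 were higher and 5 lower in TMEM119-low cells, where 72.8% of all 9565 genes were called, 34.7% higher and 38.2% lower. The median log2 fold change was 1.19 over the 30 genes and -0.05 over all genes. With library-size scaling the median of all genes was -0.39, and 2156 were called higher and 5272 lower in place of 3315 and 3653. Levels did not overlap for 7 of the 30 genes, against 22.2% of all genes tested. The gates hold cells of the classes compared above, so the 2 groupings are not independent. TMEM119-low cells were also deeper in each sample, for example 6965 against 3619 UMIs per cell (medians) under Hashtag3 of pool 1 and 8390.5 against 8179 under Hashtag6 of pool 3. Their mitochondrial share was lower in each sample, for example 0.651% against 1.37% under Hashtag3 of pool 1. The part of either in these differences was not tested.

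TMEM119-low cells had Fabp5 at 674, 1397 and 2699 CPM against 9.59, 44.7 and 472 in TMEM119-high cells (4.77 ± 0.62, adjusted p = 5.8e-06) and Plin2 at 251, 305 and 443 against 27.4, 67.3 and 164 (2.43 ± 0.27). Msr1 (3.4), Olr1 (2.88), Pla2g7 (4.32), Npc2 (1.54) and Nr1h3 (4.12) were likewise higher in all 11 samples with no overlap. All 5 storage genes and all 8 sterol genes tested rose. The sterol rise was led by Idi1, with 5.73, 20.6 and 40.1 CPM against 2.09, 4.86 and 9.64 (2.30 ± 0.22, adjusted p = 2.6e-07), and Cyp51 (1.70 ± 0.15). Sqle, tested only in this comparison, rose by 1.46 ± 0.40 (adjusted p = 0.0043) and missed the threshold without pool 1 (1.12, adjusted p = 0.090) or pool 2 (1.26, adjusted p = 0.072). Apoc2 (3.70) and Apoc1 (1.68) rose, and Apoc1 was not called when the gates were set on raw tag counts (0.53).

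The genes that fell in TMEM119-low cells were Cd36, Lpl, Abca1, Fasn and Scd2. Cd36 had 1.25, 2.95 and 6.86 CPM against 0.827, 19.2 and 75.9 and was lower in 10 of 11 samples (-2.53 ± 0.39, adjusted p = 3.6e-05), and Lpl fell by 1.77, again in 10 of 11. Abca1 had 20.7, 47.7 and 133 CPM against 91.7, 132 and 226 (-0.96 ± 0.23, adjusted p = 0.0017), while Abcg1 rose by 0.58 ± 0.12. Abcg1 missed the threshold with library-size scaling (0.25, adjusted p = 0.089) and with raw gates (0.22, adjusted p = 0.065). Fasn fell by 0.89 and Scd2 by 0.49 (adjusted p = 0.021), which missed the threshold without pool 1 (-0.37, adjusted p = 0.17). Lipa (0.18), Npc1 (-0.25) and Srebf1 (0.25) did not pass. Acsl1 (0.69) missed the threshold without pool 1 (0.55, adjusted p = 0.053), and Lipa passed it there (0.41, adjusted p = 0.010). Gates on raw tag counts turned Lpl to 0.34 and Fasn to 0.013, neither called, and gave smaller values for other genes, for example 1.4 for Fabp5, 0.99 for Plin2, 1.25 for Nr1h3 and -0.48 for Cd36. Vldlr, Fabp4, Pparg, Apoc4, Ch25h and Scd1 were not tested.

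Ly-6C, a surface protein of inflammatory monocytes, divided the monocyte- and macrophage-like cells. Macrophage-like cells made up 86.7, 99.3 and 100% of the gate with the lowest 25% of Ly-6C and 6.25, 51.3 and 86.9% of the gate with the highest, and monocyte-like cells the rest. Ly-6C-low cells were deeper in each sample, for example 20115 against 9192 UMIs per cell (medians) under Hashtag5 of pool 2 and 8870 against 7771 under Hashtag4 of pool 3. The part of depth in the differences was not tested. Of 24 genes tested, 2 were higher and 8 lower in Ly-6C-low cells, where 41.4% of all 7353 genes were called, 19.7% higher and 21.7% lower. The median was -0.07 over the 24 genes and 0.04 over all genes. Scaling to library size alone moved the call split to 2165 higher and 1206 lower, from 1452 and 1593, and raised the median of all genes to 0.14. Sums per pool gave 444 and 1122, and leaving out pool 1 gave 458 and 960.

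Apoc1 differed most by Ly-6C, with 0, 5.17 and 15.4 CPM in Ly-6C-low and 6.12, 37.0 and 49.5 in Ly-6C-high cells, lower in 11 of 11 samples (-2.23 ± 0.24, adjusted p = 1.2e-06). Abca1 ran the other way in 11 of 11, with 70.0, 104 and 160 CPM against 20.1, 42.9 and 120 (0.75 ± 0.15, adjusted p = 0.00079). Both genes overlapped between the gates. Abcg1 (-0.67 ± 0.11) and Npc2 (-0.63 ± 0.07) were lower in 11 of 11 samples and Plin2 (-0.67 ± 0.10) in 10. Insig1 (-0.71, adjusted p = 0.00029), Apoc2 (-0.56), Soat1 (-0.26) and Cyp51 (-0.62, adjusted p = 0.016) were also lower; Apoc2 was not called without the replicate block (-0.52, adjusted p = 0.71) or with counts summed per pool (-0.57, adjusted p = 0.073), and Lipa was higher (0.31, adjusted p = 0.032).

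Some of these calls rested on the monocyte-like cells or on 1 pool. Within macrophage-like cells alone Abca1 (0.33, adjusted p = 0.026), Abcg1 (-0.34), Npc2 (-0.42), Plin2 (-0.59) and Apoc2 (-0.60) still passed, whereas Insig1 (-0.16, adjusted p = 0.44), Cyp51 (-0.37), Soat1 (-0.11, adjusted p = 0.30) and Lipa did not. Apoc1 had too few UMIs to be tested within macrophage-like cells alone, without pool 1 or without pool 2. Lipa also missed the threshold without pool 1 (0.24, adjusted p = 0.25) or pool 2 (0.26, adjusted p = 0.17), Cyp51 without pool 1 (-0.33, adjusted p = 0.33) and Soat1 without pool 2 (-0.27, adjusted p = 0.050). Fabp5 was not called (-0.15), was called lower without pool 1 (-0.37, adjusted p = 0.012) and within macrophage-like cells alone (-0.59), and turned positive with the HTODemux-like hashtag rule (0.27). Without pool 2, Msr1 (0.46), Pla2g7 (0.37), Dgat1 (0.67) and Acsl1 (0.80) were called higher.

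Of the genes tested by Ly-6C, the other 9 that did not pass (Plin3, Npc1, Nr1h3, Hmgcs1, Idi1, Fdps, Srebf2, Srebf1 and Scd2) lay between -0.47 (Idi1) and 0.42 (Scd2). Cd36, Olr1, Vldlr, Lpl, Fabp4, Pparg, Apoc4, Ch25h, Fdft1, Sqle, Fasn and Scd1 were not tested.

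Within the macrophage-like class, cluster 13, led by Gpnmb, Ctsk, Fabp5 and Spp1, carried most of the Fabp5. It had 4319, 5944 and 7546 CPM of Fabp5 over 10 samples, above every sample of cluster 0 (median 962) and cluster 11 (median 946). Plin2 stood at 465, 538 and 605 CPM there against medians of 226 and 270, and Nr1h3 at a median of 127 against 48.1 and 62.4. Abca1 was at a median of 67.4 CPM in cluster 13 against 128 in cluster 0 and 82.0 in cluster 11. The clusters were formed from the same cells and genes that move with these 4, so their levels are given as a description without a test.

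Among microglia-like cells some of the lipid genes, most of them uptake genes, were concentrated in one cluster. Cluster 4, led by Egr3, Tnf, C4b, Ccl4 and Cst7, held 20.8% of the 9744 microglia-like cells and 32.9% of their UMIs, but 85.4% of their Cd36 UMIs, 72.7% of Lpl, 70.5% of Fabp5, 69.2% of Pla2g7, 61.8% of Msr1 and 52.1% of Plin2. Apoc1 (88.8%) and Ch25h (91.5%) were held there almost whole. By contrast Abca1 (25.6%), Scd2 (23.8%), Npc1 (23.1%) and Acsl1 (18.8%) lay below the cluster's share of UMIs. So did Dgat1 (25.8%), Lipa (28.6%), Hmgcs1 (26.4%), Fdps (28.1%), Fdft1 (29.8%), Srebf2 (30.9%) and Srebf1 (30.3%). Abcg1 (32.8%) and Nr1h3 (32.6%) lay close to it. The 97 cells that make up the top 1% for each gene held 91.2% of Apoc1, 90.3% of Ch25h, 61.8% of Lpl, 58.5% of Fabp5 and 42.0% of Cd36 UMIs, against 7.75% of Abca1. These shares depend on how many cells held any UMI of the gene, and are high wherever few did. An Apoc1 UMI was seen in 150 cells, Ch25h in 135, Cd36 in 588, Lpl in 633, Fabp5 in 989 and Abca1 in 5165. A single cell held 88 UMIs of Lpl.

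When cluster 4 was left out of the microglia-like arm, 10 hashed samples remained in place of 11. Hashtag6 of pool 3, where microglia-like Cd36 was highest (144 CPM), had too few other microglia-like cells. In the 10 samples the lower Cd36 and Lpl of macrophage-like cells shrank to -1.22 (adjusted p = 0.0025) and -0.87 (adjusted p = 0.013). The higher Fabp5 (6.31), Pla2g7 (6.35), Msr1 (5.44) and Plin2 (2.98) grew. Apoc1 was then called higher in macrophage-like cells (2.30, adjusted p = 6.8e-06), and Acsl1 (0.12, adjusted p = 0.58) and Fasn (-0.09, adjusted p = 0.64) were not called.

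**Figure D3:**
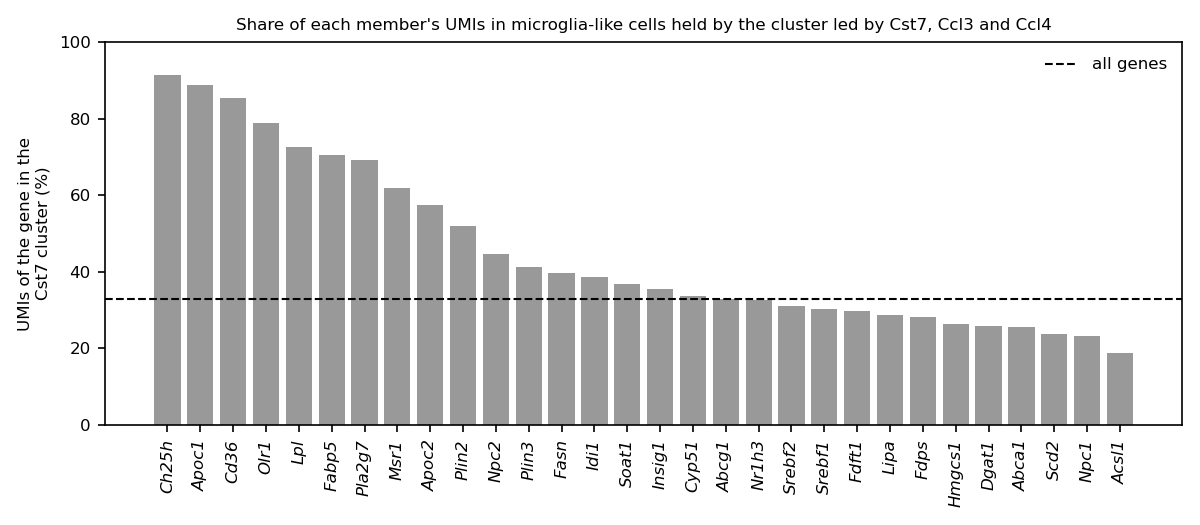
Share of microglia-like UMIs of each gene (percent) that came from cluster 4 (the Cst7 cluster), for members with at least 50 UMIs in microglia-like cells, with a line at the cluster's 32.9% of all microglia-like UMIs. Ch25h, Apoc1 and Cd36 lie above 80%, and Acsl1 lies lowest among the genes named, at 18.8%.

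Microglia-like cells were found under all 6 hashtags of each pool, which allows their levels to be listed by hashed sample without a group. Cd36 stood at 0 to 4.17 CPM in the 6 samples under Hashtag1 and Hashtag2 and at 2.67 to 144 in the 12 under Hashtag3 to Hashtag6. In pool 1 it ran through 0.468, 0.324, 36.5, 24.9, 30.9 and 25.2 CPM from Hashtag1 to Hashtag6, in pool 2 through 0.546, 0.139, 13.9, 40.3, 66.5 and 56.0, and in pool 3 through 4.17, 0, 2.67, 12.7, 26.7 and 144. The 2 sets overlapped only through Hashtag3 of pool 3. Npc2 had 584 to 932 CPM under Hashtag1 and Hashtag2 and 1022 to 1367 under the others, and the 2 ranges did not meet. Those of Pla2g7, at 0 to 6.53 and 8.17 to 26.3 CPM, did not meet either. The share of all genes without overlap between these samples was not counted, so the separation is not read as particular to these genes.

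Fabp5 stood at 11.7 to 27.5 CPM under Hashtag1 and Hashtag2 and at 23.5 to 128 under the others, and Plin2 at 27.5 to 47.9 and 37.1 to 101. Ch25h had 0 to 2.08 and 1.61 to 22.9 CPM, and Apoc1 0 to 3.28 and 0 to 87.6, highest under Hashtag3 of pool 3. Abca1 reached higher under Hashtag1 and Hashtag2, at 151 to 261 CPM against 80.4 to 224, as did Npc1, at 80.5 to 111 against 53.6 to 86.9, and Scd2, at 22.4 to 41.7 against 11.5 to 26.1, all with overlap. Acsl1, at 38.8 to 54.2 CPM against 20.1 to 50.65, also reached higher under Hashtag1 and Hashtag2, with overlap. So did Dgat1, at 17.2 to 29.2 against 11.4 to 21.3. Abcg1 (79.0 to 100.1 and 63.7 to 133 CPM) and Insig1 (9.23 to 52.1 and 11.1 to 49.8) spanned similar ranges. Lpl overlapped widely, with 6.11 to 154 and 13.4 to 205 CPM. Cluster 4 made up 0.473 to 2.14% of microglia-like cells under Hashtag1 and Hashtag2 and 20.4 to 81.8% under the others. Some marker sums of microglia-like cells moved between the same samples without overlap. Macrophage markers stood at 86.5 to 137 CPM under Hashtag1 and Hashtag2 and 188 to 649 under the others, and monocyte markers at 33.4 to 68.7 and 85.3 to 254. Microglial markers went the other way, at 17600 to 20880 and 10130 to 14970, as did dendritic cell markers, at 334 to 461 and 93.8 to 263. The part of RNA from other cell types in the levels by hashtag was not tested. A hashtag number is not known to mark the same sex or day in each pool, so no test was made.

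**Figure D4:**
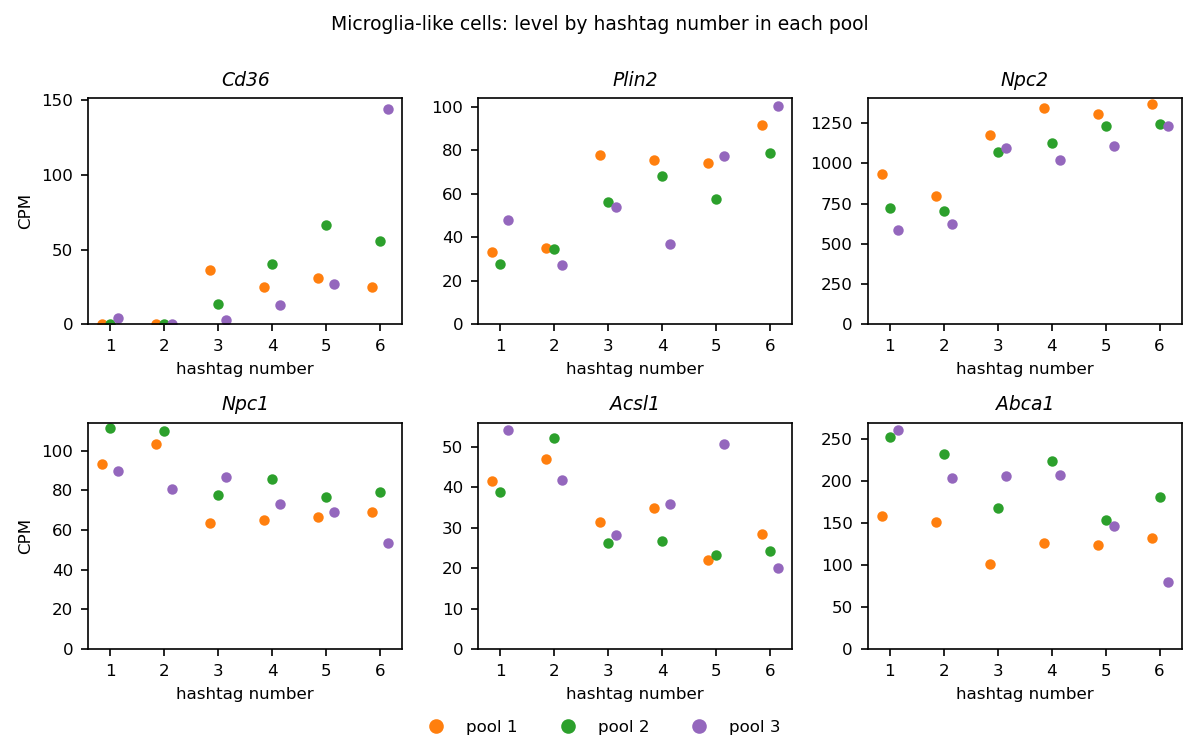
Levels (CPM) in microglia-like cells of each hashed sample, by hashtag number, colored by pool, without group labels because no source used here maps hashtags to groups. Cd36 stays at or below 4.17 CPM under Hashtag1 and Hashtag2 and reaches 144 under Hashtag6 of pool 3, while Abca1 spans 80.4 to 261 CPM over all 18 samples.

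Sterol synthesis genes stood higher in dendritic cell-like cells (869 cells in 10 samples) than in macrophage-like cells, and these values are given without a test. Idi1 stood at 54.8, 70.7 and 108 CPM there, against a highest sample of 13.3 in the macrophage-like class. Fdps (70.4, 91.6 and 118), Cyp51 (41.3, 53.2 and 79.3), Hmgcs1 (36, 51.1 and 84.8), Srebf2 (38.9, 64.3 and 79.2) and Sqle (5.43, 20.5 and 30.3) also lay above every macrophage-like sample. Fdft1 (9.62, 17.8 and 33.6) did so too, just above the macrophage-like maximum of 9.53. Insig1 was the exception, at 28.3, 39.9 and 68.9 CPM against 20.4, 28.0 and 41.5 in macrophage-like cells, higher at the median but with overlap. Monocyte-like cells had 44.1, 55.3 and 63.0 CPM of Insig1. Dendritic cell-like cells had Fabp5 at 844, 1554 and 3066 CPM, but Abca1 at 4.35, 8.78 and 35.3 and Nr1h3 at 0, 3.52 and 9.60, below every macrophage-like sample.

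**Figure D5:**
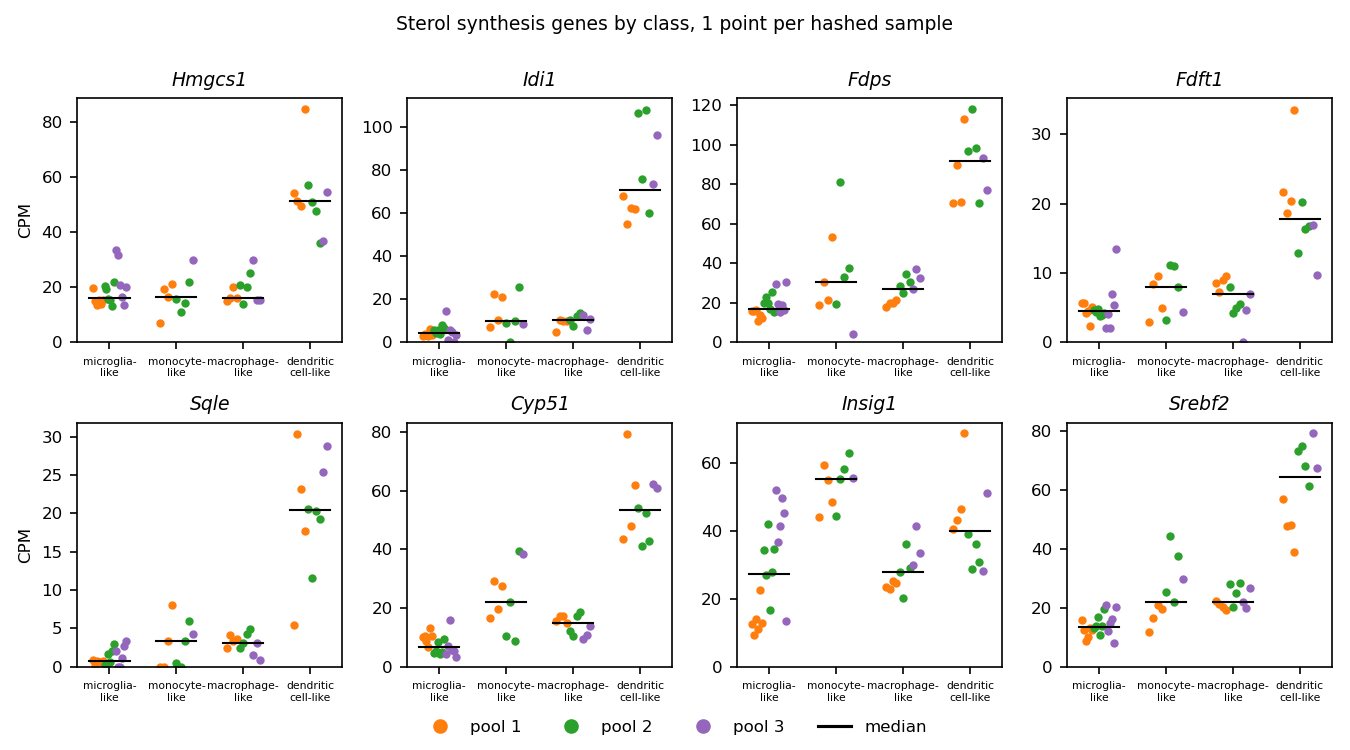
Levels (CPM) of 8 sterol synthesis genes by class, 1 point per hashed sample with at least 20 cells of the class, colored by pool, with the median as a bar. Dendritic cell-like samples lie highest for Idi1, Fdps and Cyp51, with Idi1 at a median of 70.7 CPM, and monocyte-like samples lie highest at the median for Insig1, at 55.3 CPM.

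Some members stood higher outside the main classes. Patrolling monocyte-like cells (155 cells in 4 samples) had Fabp4, an adipocyte and macrophage fatty acid-binding protein, at 75.6 to 160 CPM, Pparg at 18.9 to 33.9, Cd36 at 21.1 to 131 and Apoc1 at 33.1 to 77.4. In macrophage-like cells Fabp4 had a median of 9.74 and Pparg of 1.93 CPM. Dgat1 stood at 128 to 230 CPM in NK cell-like samples and at 317, 509 and 173 in the neutrophil-like cells of pools 1, 2 and 3, against 28.3 at the median of macrophage-like samples. Vldlr, Scd1 and Apoc4 stayed at or below 8.54 CPM in every macrophage-like, monocyte-like and microglia-like sample compared. In the largest NK cell-like cluster, a class of lymphoid cells, Fabp5 stood at 16.4 to 23.7 CPM, Plin2 at 20 to 27.3 and Npc2 at 302 to 415. Over all NK cell-like samples Fabp5 ran from 13.4 to 661 CPM. How much of these levels, or of levels of that size in other classes, is free RNA in the droplets was not tested.

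Border macrophage-like cells, the macrophages of meninges and vessels, numbered 52, 65 and 16 in the 3 pools, too few for the test by hashed sample. The sums by pool took cells of all hashtags, so these folds mix class with hashed sample. Under Hashtag2 of pool 2, for example, lay 24 border macrophage-like and 1316 microglia-like cells but 1 macrophage-like cell. The part of the hashed samples in the folds was not tested. Summed by pool, 6 of 32 genes with enough UMIs were more than 2-fold higher than in microglia-like cells in all 3 pools (Cd36, Msr1, Pla2g7, Sqle, Cyp51, Srebf2), against 1.71% of 13584 genes, and 0 were lower, against 1.15%. At resolution 2 Cd36 and Srebf2 were not among them and Fabp5, Plin2 and Idi1 were, with Lpl lower, and with the HTODemux-like rule Sqle and Cyp51 were not. Compared with macrophage-like cells 2 of 35 were higher (Cd36, Sqle), against 2.75% of 13092 genes, and 2 lower (Fabp5, Abcg1), against 1.18%. With the HTODemux-like rule Sqle and Abcg1 were not among them and Insig1 was higher, and at resolution 2 Fabp5, Pla2g7 and Nr1h3 were lower. Cd36 had 82.6, 76.9 and 161 CPM in pools 1, 2 and 3, from 16, 34 and 9 UMIs, against 18.4, 25.1 and 15.6 in microglia-like cells. Abca1 was at 201, 181 and 215 CPM. Apoc1 had 372, 9.04 and 0 CPM, and 72 of its 76 UMIs came from 1 cell. With samples of at least 10 cells, edgeR's quasi-likelihood test against microglia-like cells could use 5 samples, and it called 8 of 23 genes higher, led by Pla2g7 (4.42), Msr1 (4.39) and Cd36 (2.91), and Abcg1 lower (-1.61), where 13.4% of 8100 genes were called.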

How the data were processed

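Gene mRNA and antibody tags were measured in 3 pools of CD11b+ brain cells (6 libraries, 1 mRNA and 1 tag library per pool). The deposited values are UMI counts per gene or tag and cell barcode in filtered 10x matrices, with 74848339, 107880924 and 71510276 gene UMIs in pools 1, 2 and 3. Cell Ranger 3.0.1 and 4.0.0, Seurat 3, bcl2fastq 2.20.0.422 and build mm10 are named in the submitters' processing notes, without roles, and the matrix headers name software versions 3.1.0 (pool 1) and 4.0.0 (pools 2 and 3), per the file headers. The counting settings are not given in the sources used here.

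Kept cells had 200 genes or more, a minimum of 500 UMIs and a mitochondrial share of at most 10%, and a cell was assigned to a hashtag that held at least 80% of its hashtag UMIs. This rule was preferred because an earlier reading of these data had found mixed RNA in cells of pool 3 called by an HTODemux-like rule (0.99 quantile), which is kept as an alternative. It also removes hashtag doublets. Scrublet's automatic limits marked 0, 4.34 and 0.0595% of cells in the 3 pools, so its scores served only in an alternative (limit 0.2).

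Assigned cells were clustered (scanpy 1.11.5, 2000 variable genes, 30 components, 15 neighbours, Leiden resolution 1) without the 36 genes, the wider lipid lists, Xist and Y-linked genes. A cluster was named for the class whose markers stood highest on the log2 scale relative to the mean of all clusters, with a lead of at least 0.2 and at least 3 markers found in 10% of its cells. This rule was rewritten after first names had been seen. Class names rest on rebuilt clusters and not on an annotation by the submitters.

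UMIs were summed per hashed sample and class or gate with at least 20 cells. CPM levels are those sums scaled to their total. Sums were tested with edgeR 4.0.16 (R 4.3.3; TMM scaling, filterByExpr, quasi-likelihood F test) with the hashed sample as a block, because both arms come from the same hashed sample, and adjusted p-values (Benjamini-Hochberg, threshold 0.05) were taken over all genes that passed the filter. Log2 fold changes are the fitted coefficients, with standard errors derived from the test. Protein gates were set within each hashed sample on centred log ratios over 10 tags shared by the pools, at the lowest and highest 25%. Whether a hashed sample is 1 animal is not given, so the p-values measure the spread between hashed samples, which may be partly technical. On counts simulated from each comparison the test recovered changed genes as listed among the limits below.

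The 36 genes and the wider lists were chosen with earlier results of these data known. All 36 are accounted for. For each comparison and role the rule named the 2 called genes with the largest fold change and each gene that was not tested or did not pass, and up to 3 called genes of each wider list. Other members are named for their levels. A gene that the rule names from a wider list is not reported here. Promoters came from RefSeq (250 bases before to 50 after the start), and sequence was found for 23 of the 36 genes. Alternatives were DESeq2 1.42.0, library-size scaling, no filter, cell minimums of 10 and 50, no block, sums per pool, each pool left out, other hashtag rules, doublet scores, resolution 2, lipid genes kept, raw tag gates and, chosen after seeing the data, 4 changes of the cells compared. Border macrophage-like cells were compared by pool, by folds over 2 with at least 10 UMIs summed.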

Additional observations from a re-analysis of the deposited data

How the results depend on the processing

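Of the genes called in a comparison, only Pla2g7 and Acsl1 against monocyte-like cells and Lpl and Fasn by TMEM119 changed sign under any alternative run. Against monocyte-like cells, the HTODemux-like hashtag rule gave Pla2g7 -0.14 and Acsl1 -0.51, clustering with the lipid genes kept gave -0.0015 and -0.23, and the unnamed cluster in place of monocyte-like cells gave Pla2g7 -0.28 and Acsl1 -0.64. TMEM119 gates on raw tag counts gave Lpl 0.34 and Fasn 0.013. Genes that had not passed were called with the opposite sign in 2 settings: Msr1 -0.26, Lpl 0.65, Dgat1 -0.33, Nr1h3 -0.43 and Srebf1 -0.37 with the unnamed cluster, and Fabp5 0.27 by Ly-6C with the HTODemux-like rule. Other genes that had not passed also changed sign without being called, among them Lpl (0.69) and Nr1h3 (-0.32) against monocyte-like cells without pool 1. The cause of these changes was not tested.

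Without the replicate block, which pairs both arms within a hashed sample, 6426, 4523, 6561 and 2245 genes were called in the macrophage-microglia, macrophage-monocyte, TMEM119 and Ly-6C comparisons. The members called lower between macrophage-like and microglia-like cells then fell from 4 to 2, and those higher by Ly-6C from 2 to 1. Against monocyte-like cells the members called lower were 5 with library-size scaling, 14 with the lipid genes kept and 16 with the unnamed cluster, and those higher 13 at resolution 2. Raw TMEM119 gates left 3 lower. By Ly-6C the members called higher were 7 with library-size scaling, 6 without the filter, 5 with the HTODemux-like rule, 5 at resolution 2, 1 with raw gates and 1 within macrophage-like cells, where 5 were lower. All genes called by Ly-6C numbered 1566 with sums per pool, 1776 with raw gates and 1129 within macrophage-like cells, against 3045. Of the border macrophage-like folds, 1 member was lower than in microglia-like cells at resolution 2, and 1 was lower than in macrophage-like cells both with the HTODemux-like rule and with 90% of hashtag UMIs.

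Leaving out each pool in turn, the members called were 18 to 21 higher and 2 to 4 lower between macrophage-like and microglia-like cells (5471 to 7190 genes in all), 6 to 8 and 6 to 10 against monocyte-like cells (3652 to 4995), 19 to 22 and 4 to 5 by TMEM119 (5608 to 7189), and 2 to 5 and 5 to 9 by Ly-6C (1418 to 2975).

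Pool 3 gave only 1896 assigned cells, so its classes rest on few cells per sample. Intervals on UMI sums cover counting error only. On counts simulated for the 4 tested comparisons 86 to 95% of genes changed by 1 on the log2 scale and 88 to 92% of those changed by 2 were recovered. Of the unchanged genes, 7 to 12 were called. Each size of change was given to 100 genes, as many up as down, around a shared mean per gene without an effect of the hashed sample. The simulation therefore cannot show how the scaling performs where most genes differ. Border macrophage-like cells could not be tested at 20 cells per sample, since fewer than 3 samples reached it.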
